A study of Mus musculus with 2 samples.

Results

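The *Ms4a* genes encode the membrane-spanning 4-domains family, and 10 of them were examined here in cultured liver cells of control and *Drp1*LiKO mice: *Ms4a1*, *Ms4a4a*, *Ms4a4b*, *Ms4a4c*, *Ms4a4d*, *Ms4a6b*, *Ms4a6c*, *Ms4a6d*, *Ms4a7* and *Ms4a8a*. These genes were chosen by measured values of the same 2 arrays, in which *Ms4a7* stood among the largest increases, so every difference below is a description and none was tested. All non-control probes with one of these gene names were taken, which gave 14 of 56605 probes and 10 of 37074 gene names. The array carries 9 other *Ms4a* genes, which are described after the members. Control mice were *Drp1*flox/flox, and their littermates, *Drp1*LiKO mice, carried the same floxed alleles together with 1 *Alb-Cre* transgene, in which the albumin promoter drives Cre in hepatocytes, so that other liver cells of both genotypes are expected to keep *Drp1*. Both groups had a C57BL/6 background, and the labels call the floxed controls wild type. Hepatocytes were separated from other liver cells by slow centrifugation, received no agent, and were harvested 24 h after seeding. The study's methods give age and sex only for purchased mice, and for the mice behind these cultures neither these nor their number was found in the sources used here.

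Each MS4A protein crosses the membrane 4 times, with both ends inside the cell, and family members associate with other receptors of immune cells and modify their signaling. The family is best known from leukocytes: MS4A1 is CD20 of B cells, MS4A2 is the beta chain of the high-affinity IgE receptor of mast cells and basophils, and several MS4A4, MS4A6 and MS4A7 proteins are found on macrophages, including those of the liver. The genes form a cluster on chromosome 19 of the mouse. Hepatocytes are not known for high expression of the family.

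The findings rest on short probes, and the first 30 of the 60 bases are shown for both probes of *Ms4a7* and that of *Ms4a6d*, the genes with the largest differences. For *Ms4a4c*, the brightest member, bases 7 to 36 are shown, with the repeat of T and G in capitals. All are written 5′ to 3′ as in the array files.
*Ms4a7*, brighter probe: agcagagtacagctagacttgcctgaaatc
*Ms4a7*, dimmer probe: ttcttgcctcaatcacaagatcatacccaa
*Ms4a6d*: cctgtctcagaactcaaagaataaatccag
*Ms4a4c*: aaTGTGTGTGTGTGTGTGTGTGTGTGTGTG
The repeat of the *Ms4a4c* probe ran over 29 bases, and 54 probes of 54 other genes shared a stretch of at least 20 bases with this probe. No probe of another gene shared such a stretch with any of the other 13 member probes, whose longest repeat of this kind was 4 bases.

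Each genotype had 1 Cy3-labeled array, and the pair shared 1 slide and 1 scan. There was no replicate, so no p-value is given, and the differences describe these 2 arrays. Signals are background-corrected intensities on a linear scale, and log2 ratios are *Drp1*LiKO minus control after the 75th percentile of each array (313 in control cells and 356 in *Drp1*LiKO cells) was set equal. A probe counted as detected on an array where the scanner software marked it as well above background, as it did for 48.2% of 56600 probes on the control array and 52.1% on the *Drp1*LiKO array. The lowest such signal was 18.2 in control cells and 15.0 in *Drp1*LiKO cells. Where only one array had a detected signal, the other was raised to this limit, or kept where it was higher, and the ratio is a lower bound, written as at least N-fold. The targeted gene, *Dnm1l*, had a signal of 2602 in control cells and 1217 in *Drp1*LiKO cells (log2 ratio -1.28) by its brighter probe. A second, dim probe had 22.8 and 20.9 (log2 ratio -0.31). The Z scores of these probes, by the rule of size defined further on, were -1.95 and -0.46. Neither reached the threshold of 2 on the lower side.

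Of the 10 members, 2 were detected on both arrays (*Ms4a4c* and *Ms4a7*), 5 on the *Drp1*LiKO array only (*Ms4a1*, *Ms4a4b*, *Ms4a4d*, *Ms4a6c* and *Ms4a6d*) and 0 on the control array only. *Ms4a4a*, *Ms4a6b* and *Ms4a8a* were not detected on either. By probe, 8 of 14 were well above background on the *Drp1*LiKO array and 2 on the control array. Over all 20165 detected genes, 9.09% were detected on the *Drp1*LiKO array only and 2.96% on the control array only. The members had been picked with these values known, so nothing is read from the difference between these shares.

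**Figure D1:**
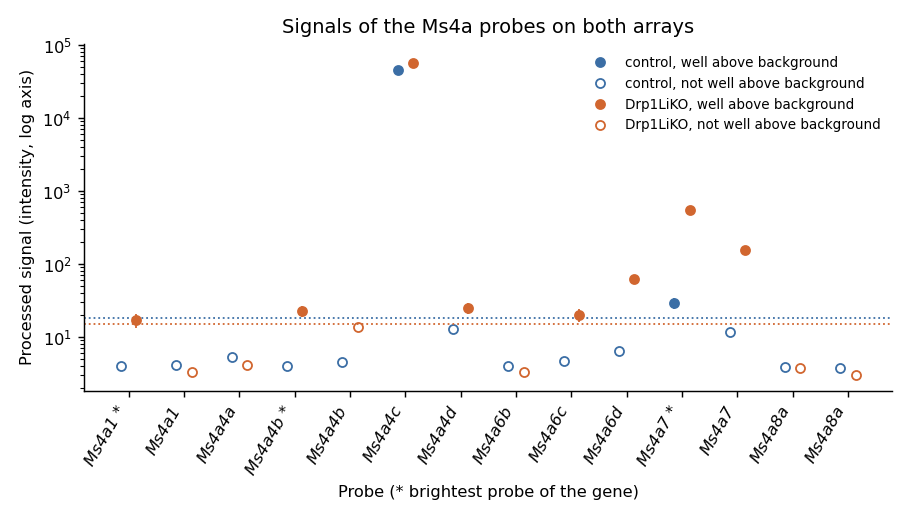
Processed signal (intensity, log axis) of each of the 14 *Ms4a* probes on the control (blue) and *Drp1*LiKO (orange) array, 1 array per genotype. Filled points were well above background and open points were not, bars (mostly shorter than the points) show the error given by the scanner software for detected signals, and dotted lines mark the lowest signal well above background on each array, 18.2 and 15.0. The probes of *Ms4a7* and *Ms4a6d* stand apart between the arrays, and *Ms4a4c* is the bright exception.

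*Ms4a7*, a gene of monocytes and macrophages, had the largest ratio of the members. Its brighter probe (NM_001276398, chromosome 19 of mm9, 11395903 to 11395962, minus strand) had a signal of 28.5 ± 4.86 in control cells and 539 ± 54.0 in *Drp1*LiKO cells, where ± is the error given by the scanner software for the single spot. The log2 ratio was 4.06, or 16.7-fold, which placed it 10th among 17735 genes detected on both arrays. The raw means behind these signals were 98.8 and 624, over a local background of 58 on both arrays, so the control signal stood close above background and the fold depends on how that background is subtracted. The other probe (11396004 to 11396063) lies 41 bases away. Its signal was 11.7 in control, not well above background, and 155 in *Drp1*LiKO cells, at least 7.49-fold higher. Both probes were thus brighter on the *Drp1*LiKO array, and only the brighter one was detected in control cells.

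*Ms4a6d* encodes a macrophage protein known to associate with VSIG4, a complement receptor of Kupffer cells. Its single probe (NM_026835, 11661601 to 11661660, minus strand) had a signal of 6.28 in control, not well above background, and 61.0 ± 6.90 in *Drp1*LiKO cells, at least 2.95-fold higher (log2 1.56). The bound depended on the processing, at log2 1.26 in the deposited normalized values and 0.52 with normexp background correction. Both were short of the threshold of size (a Z score of 2) defined further on. The deposited values themselves were 7.17 in control and 56.9 in *Drp1*LiKO cells (log2 ratio 2.99). For the bound of 1.26 the control value was raised to a limit of 23.8. Among genes detected on the *Drp1*LiKO array only, 187 had a bound larger than 2.95-fold. Its relative *Ms4a6c* (NM_028595, 11545580 to 11545639) had a signal of 4.65 in control, not well above background, and 20.1 ± 3.97 in *Drp1*LiKO cells. After scaling, this last value lay below the detection limit of the control array, so no fold can be given. *Ms4a6b*, the third gene of the subgroup, had signals of 3.96 and 3.25, neither of them well above background. The 3 *Ms4a6* genes therefore ranged from no detection to a difference past the limit.

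The *Ms4a4* subgroup held 4 members. *Ms4a4a*, whose product is found on macrophages and associates with the beta-glucan receptor dectin-1, was not detected, with signals of 5.17 in control cells and 4.02 in *Drp1*LiKO cells. *Ms4a4b*, known from T cells, has 2 probes, and the brighter one (11532299 to 11532358) had a signal of 3.90 in control, not well above background, and 22.2 ± 3.90 in *Drp1*LiKO cells, at least 1.07-fold higher. The other *Ms4a4b* probe had signals of 4.50 and 13.5 and was not well above background on either array. *Ms4a4d* (NM_025658), whose probe spans 1325 bases of mm9 from 11629387 to 11630711, had 12.7 in control, not well above background, and 24.7 ± 4.52 in *Drp1*LiKO cells, at least 1.20-fold higher. With normexp background correction the log2 bounds were -0.04 for *Ms4a4b* and -0.09 for *Ms4a4d*. A lower bound under 0 gives no direction, so neither gene is settled as higher. The bounds of 1.07-fold and 1.20-fold are close to 1 because the *Drp1*LiKO signals lay just above the limit.

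*Ms4a4c* was the exception in level. Its probe (NM_029499, 11500839 to 11500898) had a signal of 45415 ± 4541 in control cells and 56509 ± 5651 in *Drp1*LiKO cells (log2 ratio 0.13), with a spread of 0.056 expected between single spots at this signal. This is the probe with the 29-base repeat shown above, and such probes were bright whatever their gene. Of 48 probes on the array with a repeat of T and G of at least 20 bases, 100% were well above background on both arrays and 87.5% had a signal over 10000 on both. Among the 56221 probes whose longest such repeat was under 8 bases, 46.6% were well above background on both and 4.20% had a signal over 10000 on both. The other 47 repeat probes had log2 ratios from 0.04 to 0.33 with a median of 0.20, and 10 of them lay below the ratio of *Ms4a4c*. The signal and ratio of *Ms4a4c* thus lay within the range of repeat probes for other genes, and the probe gives no level that can be assigned to *Ms4a4c*.

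**Figure D2:**
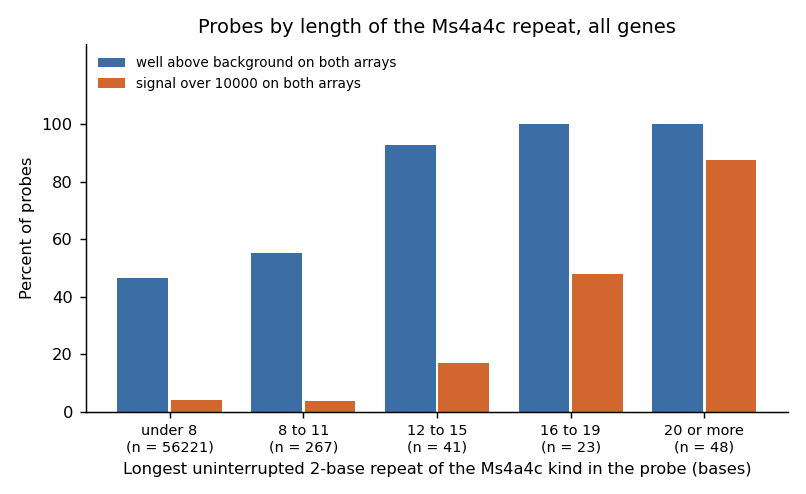
Percent of probes well above background on both arrays (blue) and with a signal over 10000 on both arrays (orange), by the longest uninterrupted repeat of T and G in the probe, in bases, with the number of probes (n) under each class. In the class of 20 bases or more the shares are 100% and 87.5%, and this class holds the *Ms4a4c* probe.

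*Ms4a1*, which encodes the B cell antigen CD20, has 2 probes. The brighter one (11324334 to 11324393) had a signal of 3.91 in control, not well above background, and 16.9 ± 3.63 in *Drp1*LiKO cells, which is below the lowest detected control signal of 18.2, so no fold can be given. The other probe of *Ms4a1* had signals of 4.02 and 3.26 and was not well above background on either array. *Ms4a8a*, described in epithelial cells and in some macrophages, was also not detected. Its 2 probes had signals of 3.89 and 3.65 in control cells and of 3.75 and 2.97 in *Drp1*LiKO cells.

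The Z score, the distance of a log2 ratio from the mean ratio of 30275 detected probes in units of their SD, which was 0.65, served as a rule of size. A Z score of 2 corresponds to a log2 ratio of 1.30, or 2.46-fold. Past this threshold lay 2 of the 7 detected members (28.6%), *Ms4a7* with a Z score of 6.24 and *Ms4a6d* with 2.41, where 3.5% of all 20165 detected genes were higher by the same rule. By probe, both probes of *Ms4a7* and that of *Ms4a6d* were past it, where 2.94% of all detected probes were. These ratios served to choose the members, and nothing is read from the contrast. No member passed the threshold in the other direction. The median log2 ratio of the detected members was 0.13, which is the ratio of *Ms4a4c*, beside -0.05 over all genes. Without *Ms4a4c* it was 0.18. In 5 of the 7 the ratio or bound was above 0, and for *Ms4a1* and *Ms4a6c* the bound gives no direction.

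**Figure D3:**
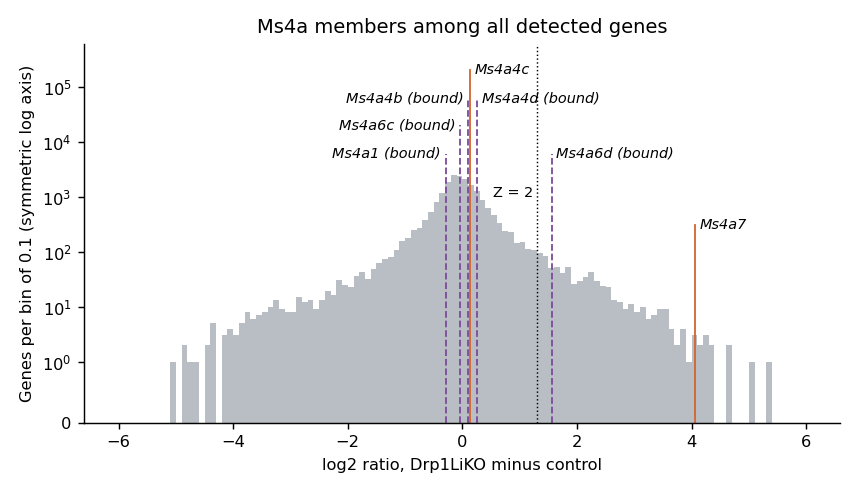
Number of detected genes per bin of 0.1 of the log2 ratio (*Drp1*LiKO minus control, brightest probe), on a symmetric log axis, with the 7 detected *Ms4a* members as lines. Solid lines are ratios measured on both arrays, dashed lines are lower bounds, and the dotted line marks a Z score of 2 (1.30). *Ms4a7* lies at 4.06, *Ms4a6d* at 1.56 and the other 5 near 0.

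Of 9 other *Ms4a* genes on the array, 2 were detected. *Ms4a2*, the beta chain of the IgE receptor, had a signal of 3.93 in control, not well above background, and 48.1 in *Drp1*LiKO cells, at least 2.33-fold higher with a Z score of 1.88, short of the threshold. Its second probe had 3.62 in control, not well above background, and 19.1 in *Drp1*LiKO cells, for which no fold can be given. *Ms4a18* was detected on both arrays, at 31.3 in control cells and 23.8 in *Drp1*LiKO cells (log2 ratio -0.58). *Ms4a3*, *Ms4a5*, *Ms4a10*, *Ms4a12*, *Ms4a13*, *Ms4a14* and *Ms4a15* were not detected on either array. The related *Tmem176a* and *Tmem176b*, which encode 4-span proteins outside the cluster, were detected on both arrays with log2 ratios of -0.34 and -0.22. A signal on the *Drp1*LiKO array was therefore found for some, not all, genes of the family.

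Receptors and adaptors known to work with MS4A proteins, or linked to them, formed a list of 6 genes. All 4 detected genes of this list were past the threshold on the higher side, where 3.5% of all 20165 detected genes were. Their median log2 ratio was 2.45 beside -0.05 over all genes. The list was chosen with earlier results of these data known, so nothing is read from this contrast. High ratios were not particular to it, since the macrophage markers described next had a median of 2.05. *Trem2*, a lipid receptor of macrophages and microglia, had a signal of 31.3 in control cells and 449 in *Drp1*LiKO cells, 12.6-fold higher. *Fcer1g*, the common gamma chain of Fc receptors, had 115 and 716, 5.50-fold higher. *Clec7a*, which encodes dectin-1, had 91.6 and 563, 5.42-fold higher. *Tyrobp*, the adaptor DAP12 of TREM2, had 114 and 667, 5.15-fold higher. *Fcer1a*, the alpha chain of the IgE receptor, and *Tnfrsf18*, the T cell receptor GITR that associates with MS4A4B, were not detected on either array.

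Markers of other liver cells were measured on the same arrays. The share of 3.5% of all detected genes past the threshold on the higher side applies beside each list. In bulk RNA, fewer cells of a type and less RNA per cell cannot be told apart. Of 20 Kupffer cell and macrophage markers, 18 were detected, 17 of them with a ratio or bound above 0 and 11 past the threshold, with a median log2 ratio of 2.05 and a range from -0.01 (*Slc40a1*, the iron exporter ferroportin) to 3.45 (*Marco*, a scavenger receptor). Next to these extremes lay *Cd14*, the LPS co-receptor, at 0.21, and *Aif1* (IBA1) at 3.32. The brightest gene in control cells was *Cd14*, at 6407 beside 8419 in *Drp1*LiKO cells. In *Drp1*LiKO cells the brightest was *Cd68*, a lysosomal protein of macrophages, at 9593 beside 2346 in control cells. The summed signal of the detected macrophage markers was 13046 in control cells and 31497 in *Drp1*LiKO cells. Of the markers that define Kupffer cells, *Clec4f* had 13.7 in control, not well above background, and 119 in *Drp1*LiKO cells, at least 5.75-fold higher, *Vsig4* had 14.7, not well above background, and 66.4, at least 3.21-fold higher, and *Timd4* was not detected. The part of such cells in the signals of *Ms4a7* and *Ms4a6d* was not tested.

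B cell markers, listed beside *Ms4a1*, gave 4 of 10 detected genes, 0 of them past the threshold, with a median log2 ratio of 0.05. The summed signal of the detected B cell markers was 102 in control cells and 135 in *Drp1*LiKO cells, *Cd22* was the brightest, at 44.2 and 55.6, by a probe that shares at least 20 bases with those of 2 other genes, and ratios ran from -0.52 (*Pax5*) over -0.05 (*Fcer2a*, a bound without direction) and 0.15 (*Cd22*) to a bound of 0.88 (*Cr2*). The defining genes *Cd79a* and *Cd79b* were not detected, nor were *Blk*, *Fcrla* and *Ebf1*. For T and NK cells, 4 of 12 markers were detected, 0 of them past the threshold, with a median of -0.42. These were *Lck* at -0.55, *Cd4*, the brightest, at -0.47, *Cd3e* at -0.37 and *Cd5* at a bound of 0.29, and their summed signal was 1450 in control cells and 1215 in *Drp1*LiKO cells. *Cd3d*, *Cd3g*, *Cd8a*, *Ncr1* and *Nkg7* were among the 8 not detected.

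Mast cell and basophil markers, listed beside *Ms4a2*, gave 4 of 10 detected genes, of which *Kit*, the stem cell factor receptor, was 4.23-fold higher and *Hdc*, the histamine-forming enzyme, at least 2.62-fold higher in *Drp1*LiKO cells. *Tpsb2* had a log2 ratio of 0.38, and *Gata2*, the brightest of the list, one of -1.22. The summed signal of this list was 329 in control cells and 367 in *Drp1*LiKO cells, and *Cpa3*, *Mcpt4*, *Cma1* and *Mcpt8* were not detected. Of 10 monocyte markers, 7 were detected, with a median of -0.28, a summed signal of 28266 in control cells and 15847 in *Drp1*LiKO cells and *Ccr2* and *Cx3cr1* not detected. That median is the ratio of *Itgam*, whose probe shares at least 20 bases with probes of 29 other genes, so that it may not be specific. Among these, *Ly6c2*, which marks classical monocytes and whose probe shares 20 bases with that of 1 other gene, had a log2 ratio of 3.55 and *Plac8* one of 2.89. *S100a4*, the brightest of the list, was at -1.86. This gene gave 23479 of the summed signal in control cells and 7359 in *Drp1*LiKO cells. Without *S100a4* the sum would not have fallen. *Chil3* was detected in control cells only, at least 2.33-fold lower in *Drp1*LiKO cells. Monocyte markers did not share one direction.

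Neutrophil markers gave 3 of 10 detected genes, with a median of 0.38, and *S100a8* and *S100a9* were not detected. *Ly6g* had a bound of 1.90 and *Camp* of 0.38, while *Csf3r*, the brightest of the list, had a log2 ratio of 0.17. Of 8 dendritic cell markers, *Siglech* was the only one detected, at a log2 ratio of 0.09, and *Flt3*, *Xcr1* and *Zbtb46* were not detected. The probes of *Ly6g*, *Csf3r* and *Siglech* share at least 20 bases with probes of 1, 2 and 4 other genes, so their signals are not certain to be specific. The summed signal of neutrophil markers was 16603 in control cells and 21319 in *Drp1*LiKO cells, most of it that of *Csf3r*. For dendritic cell markers it was 26239 and 31597, all of it that of *Siglech*.

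Endothelial markers gave 10 of 10 detected genes, all with a ratio or bound above 0 and 5 past the threshold, with a median log2 ratio of 1.46 and a summed signal of 4277 in control cells and 9001 in *Drp1*LiKO cells. The highest were *Kdr*, a VEGF receptor, at 2.47 and *Clec4g* at 2.18, the lowest *Tek* at a bound of 0.27 and *Egfl7*, the brightest, at 0.70. The labeled cell type was checked with 12 hepatocyte markers, of which every one was detected on both arrays. The median of their log2 ratios was 0.30, with 1 past the threshold and a summed signal of 817762 in control cells and 877834 in *Drp1*LiKO cells. *Alb*, which encodes albumin, had signals of 219613 and 266703. The brightest was *Serpina1a* (alpha-1-antitrypsin) at -0.18, whose probe shares at least 20 bases with those of 2 other genes, the lowest *Cyp2e1* at -0.78 and *Trf* (transferrin) at -0.28, and the highest *Cyp3a11* at 2.03 and *Tat* at 1.28.

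**Figure D4:**
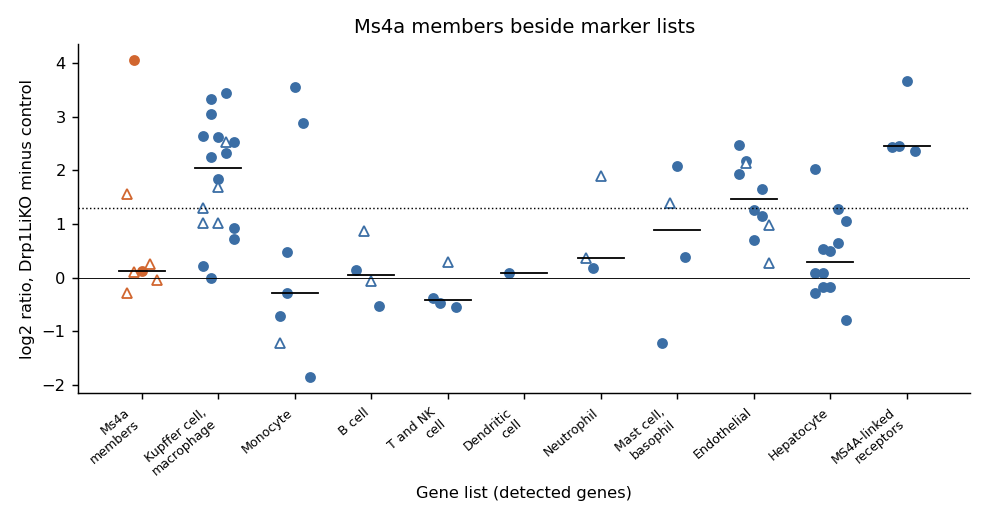
Log2 ratio (*Drp1*LiKO minus control) of each detected gene of the *Ms4a* members (orange), of 9 cell type marker lists and of the MS4A-linked receptors (blue). Circles are ratios of genes detected on both arrays, triangles are bounds from genes detected on 1 array only, black bars are medians and the dotted line is a Z score of 2. Macrophage and endothelial markers have medians of 2.05 and 1.46, whereas those of B cells and hepatocytes are 0.05 and 0.30.

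The members lie together on chromosome 19, so the genes around them were measured as well. In RefSeq annotation of GRCm38.p6 the 10 members were found among 21 *Ms4a* genes on chromosome 19. The order of the members there was *Ms4a8a*, *Ms4a1*, *Ms4a7*, *Ms4a4a*, *Ms4a4c*, *Ms4a4b*, *Ms4a6c*, *Ms4a6b*, *Ms4a4d* and *Ms4a6d*, with *Ms4a2* next to *Ms4a6d*. In the coordinates of the array files (mm9) the member probes spanned 519.53 kb, from 11142131 to 11661660. Within 500 kb on both sides, apart from the *Ms4a* genes already described, lay probes of 49 genes. Of these, 26 were detected with their brightest probe in this window. Their log2 ratios had a median of -0.01, 12 were above 0 and 1 was past the threshold. That gene, *Slc15a3*, a peptide and histidine transporter of lysosomes in immune cells, had a signal of 6.51 in control, not well above background, and 72.9 in *Drp1*LiKO cells, at least 3.53-fold higher. *Stx3*, a syntaxin of membrane fusion, followed at 1.25, with signals of 526 and 1416, and *Vps37c* at 0.55. Not counted among the 26 was *Gm17821*, whose brightest probe was not in the window. Its probe inside the member span had 1647 in control and 3017 in *Drp1*LiKO cells (log2 ratio 0.69). The lowest of these 26, again without *Ms4a* genes, were *Osbp* at -0.73, whose second probe was at 0.12, *Tmem109* at -0.62 and *Vwce* at -0.49. Past the threshold in this region were thus *Ms4a7*, *Ms4a6d* and *Slc15a3*. *Ms4a2*, next to *Ms4a6d*, had a bound of 1.22, short of it. *Ms4a7* lies between *Ms4a14* and *Ms4a4a*, both undetected. Bounds and undetected genes do not show whether the genes beside each other changed together, and this was not tested.

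**Figure D5:**
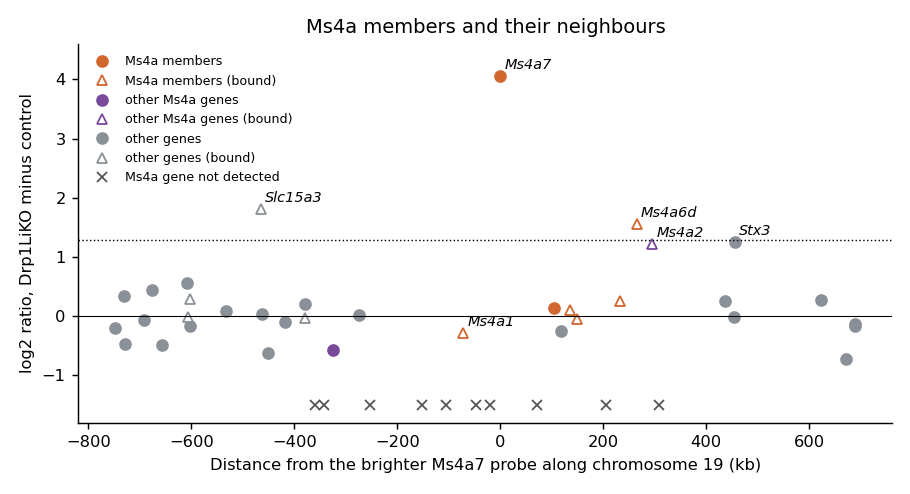
Log2 ratio (*Drp1*LiKO minus control, brightest probe) against the distance in kb from the brighter *Ms4a7* probe along chromosome 19. Circles were detected on both arrays, triangles are bounds from genes detected on 1 array only, crosses at the bottom mark *Ms4a* genes not detected on either array, and the dotted line is a Z score of 2. *Ms4a7* is at 4.06, and past the threshold are also *Ms4a6d* and *Slc15a3*.

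Promoters of 8 members, 9 in all, were read from RefSeq sequences of GRCm38.p6, and those of *Ms4a1* and *Ms4a6d* were not used here. They were searched, on both strands from 250 bases before to 50 bases after the start site, for 3 motifs: GAAANNGAA, a pair of interferon regulatory factor core sites, TTCNNNGAA, the site of activated STAT dimers, and AGGAAGT, a site of ETS factors such as PU.1. The first and second can overlap each other. The promoter of *Ms4a7*, the member with the largest ratio, is shown in its 250 bases before the start site (GRCm38.p6 chr19:11336147-11336396, minus strand), with the match to the interferon regulatory factor pair, on the opposite strand 71 bases before the start, in capitals.
*Ms4a7* promoter: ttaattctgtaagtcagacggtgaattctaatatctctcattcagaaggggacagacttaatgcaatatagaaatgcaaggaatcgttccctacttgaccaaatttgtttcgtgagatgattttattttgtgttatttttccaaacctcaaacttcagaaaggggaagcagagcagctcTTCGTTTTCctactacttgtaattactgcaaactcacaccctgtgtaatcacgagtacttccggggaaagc
The interferon regulatory factor pair was found in 4 of the 9 promoters, both of *Ms4a7* and those of *Ms4a6b* and *Ms4a6c*, beside 8.56% of 32851 promoters of all genes. AGGAAGT was found in 2, those of *Ms4a6b* and *Ms4a6c*, beside 9.35%, and TTCNNNGAA in 0, beside 8.30%. A match to these letters is a description of the sequence, and binding was not measured.

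The promoters of *Ms4a6b* and *Ms4a6c* shared the longest run of identical bases among 35 pairs of promoters of different members. The 48 shared bases are shown because these genes have similar promoters and differed in detection, with the AGGAAGT match in capitals.
*Ms4a6c* (chr19:11469319-11469366) and *Ms4a6b* (chr19:11518441-11518488), plus strand: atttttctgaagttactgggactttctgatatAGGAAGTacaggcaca
The run starts 49 bases before the start site of *Ms4a6c* and 118 bases before that of *Ms4a6b*. Both promoters also held the same interferon regulatory factor match, GAAAGTGAA, at 133 and 206 bases before the start. *Ms4a6c* was detected in *Drp1*LiKO cells at a signal of 20.1 and *Ms4a6b* was not detected on either array, each by its own probe. The next longest run, 20 bases, was shared by *Ms4a4b* and *Ms4a4c*, and no other pair shared more than 13.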

How the data were processed

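RNA of 1 control and 1 *Drp1*LiKO hepatocyte culture was measured on 1-color Agilent arrays. The deposited scanner files give a processed signal per spot, an intensity from which Feature Extraction had subtracted the background. The submitters' processing notes name Feature Extraction 9.5.1.1, the file headers 10.7.1.1. A deposited table of intensities on a linear scale, normalized by a method not given in the sources used here, served as an alternative. Its column medians were 19.1 and 19.1. No column of fold changes was used.

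Spots flagged as outliers and control spots were dropped. Each probe was the mean log2 signal of its spots less the 75th percentile of its array. Probes detected on either array were kept, and the brightest probe stood for its gene. The Z-score threshold of 2 follows the study's methods. With 1 array per group the number of arrays limits the precision, and no test was run. The members and gene lists were chosen with earlier results of these data known. Named were all members, *Dnm1l*, the 2 highest, 2 lowest and brightest genes of each list, and the 3 highest and 3 lowest neighbors. Defining markers and undetected genes were added after their values were seen. Alternatives were other scalings, background corrections, filters, probe choices and Z scores. Not every listed gene is reported here. Whether a probe lies in an exon or UTR was not analysed here. Simulated data served to test the steps. Calculations ran in R 4.3.3 (limma 3.58.1) and Python 3.11.15 (numpy 2.4.6, pandas 2.3.3, matplotlib 3.10.9).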

Additional observations from a re-analysis of the deposited data

How the results depend on the processing

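No paired analysis was possible because each genotype had 1 array, and for the same reason no array could be left out. Alternatives numbered 12, and in a further one, chosen after seeing the data, *Ms4a4c* was left out. *Ms4a7* was past the threshold in all 11 alternatives that scored it, with log2 ratios from 2.57 (normexp background correction) to 4.10. *Ms4a6d* lay below the threshold when the Z score was taken within bins of similar signal (1.46). It did so too in the deposited values (log2 bound 1.26, Z score 1.92) and with normexp (log2 bound 0.52, Z score 1.34), and lay past it in 7 others. It was not scored where only probes detected on both arrays were kept.

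The number of members past the threshold, 2, was 1 with the Z score within bins of similar signal, 1 in the deposited values, 1 with normexp, 1 among probes detected on both arrays and 5 without a floor, when *Ms4a1*, *Ms4a4b* and *Ms4a6c* were added. The number with a ratio above 0, 5 of 7, was 3 of 3 in the deposited values, 3 of 7 with normexp, 2 of 2 among probes detected on both arrays, 7 of 7 without a floor and 5 of 10 with undetected probes kept. The median log2 ratio, 0.13, was 1.26 in the deposited values, 1.93 without a floor, 2.10 among probes detected on both arrays, 0.03 with undetected probes kept and -0.04 with normexp, where that of all genes was -0.06. Fewer members were scored in the deposited values (3) and among probes detected on both arrays (2). The median of 1.26 in the deposited values is the bound of *Ms4a6d*. The *Drp1*LiKO column of the deposited table had a rank correlation of 0.958 with its array, across probes, which are not replicates. For the control column it was 0.999999. The deposited *Drp1*LiKO values thus did not keep the probe order of their array, for a reason that was not tested. The cause of the other shifts was not tested. Keeping undetected probes moved the median of all genes to -0.47, the difference between the detection limits of the arrays. Low signal over background in control cells limits every member but *Ms4a4c*, so most folds are bounds.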
